A study of Homo sapiens with 8 samples.

Results

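Transcript levels were described for 10 genes of cellular zinc handling in MDA-MB-157, an ER-negative human breast carcinoma line, after 48 hours with 5 mM or 25 mM glucose. The genes were picked by symbol from the deposited table as the zinc exporter SLC30A1, the zinc sensor MTF1, the metallothioneins MT2A, MT1X, MT1E, MT1F, MT1G and MT1M, and the zinc importers SLC39A10 and SLC39A14. Of these 10 symbols, 9 were found among the 21059 genes of the table, 8 had a value above 0, and 6 had a mean of at least 5 counts per 1000000 reads (CPM). MT1G was not analysed here. Since earlier results of the same contrast were known when the genes were picked, their values are given as a description with no test.

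The 2 groups were 4 low-glucose libraries (5 mM) and 4 high-glucose libraries (25 mM), bulk RNA sequencing of cells in T25 flasks. By the study's methods, all cells were first conditioned in low-glucose medium and were kept without serum during the exposure, so that both groups share the serum withdrawal. All 8 libraries come from 1 cell line, and none of them is a mannitol control for osmolarity. No source used here says whether the 4 replicates of a group were separate cultures, so the spread between them, and every p-value built on it, may be technical.

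Cells keep free zinc low by exporting it, storing it and limiting its entry. SLC30A1 (ZnT1) carries zinc out across the plasma membrane, metallothioneins are small cysteine-rich proteins that bind zinc and copper, and SLC39A proteins (ZIPs) bring zinc into the cytosol. MTF1 is a zinc finger transcription factor that binds metal response elements when cytosolic zinc is high and is known to activate metallothionein genes and SLC30A1, and in mouse cells to repress Slc39a10.

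The promoters of SLC30A1, MT2A and MT1X are shown because metal response elements are the sequence through which MTF1 acts. Among the members with a promoter sequence at hand, they are those whose window holds its letters. Promoter sequences from RefSeq (GRCh38.p14) were matched for 5 of the 10 genes. MT1E, MT1F, MT1G, MT1M and SLC39A14 had no sequence here and were not searched. The 250 bases before the start were searched on both strands for the core of the element, TGCACNC or TGCGCNC, and matches are in capitals, written as they stand on the strand of the gene, 5′ to 3′. The SLC30A1 window lies at chr1:211579162-211579411 on the minus strand, that of MT2A at chr16:56608334-56608583 on the plus strand and that of MT1X at chr16:56682220-56682469 on the plus strand.
SLC30A1: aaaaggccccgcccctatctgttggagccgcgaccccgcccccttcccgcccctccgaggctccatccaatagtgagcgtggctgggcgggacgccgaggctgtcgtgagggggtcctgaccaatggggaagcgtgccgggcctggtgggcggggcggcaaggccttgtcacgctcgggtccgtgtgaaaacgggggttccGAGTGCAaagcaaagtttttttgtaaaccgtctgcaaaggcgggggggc
MT2A: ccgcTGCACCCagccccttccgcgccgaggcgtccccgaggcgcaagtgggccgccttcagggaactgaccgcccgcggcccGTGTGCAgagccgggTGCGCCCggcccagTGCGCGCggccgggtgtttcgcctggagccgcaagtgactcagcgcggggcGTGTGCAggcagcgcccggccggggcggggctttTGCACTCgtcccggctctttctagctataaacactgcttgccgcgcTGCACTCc
MT1X: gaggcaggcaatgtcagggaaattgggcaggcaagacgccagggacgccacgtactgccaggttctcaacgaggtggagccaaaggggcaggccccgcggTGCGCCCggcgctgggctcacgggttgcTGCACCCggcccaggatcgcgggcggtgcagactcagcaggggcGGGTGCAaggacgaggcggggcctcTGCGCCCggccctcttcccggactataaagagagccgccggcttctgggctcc
The MT2A window held 7 matches that did not overlap each other, 5 on the strand of the gene and 2 on the other strand, the nearest lying 8 to 2 bases before the start. The MT1X window held 4 matches, 3 of them on the strand of the gene. The SLC30A1 window held 1 match, GAGTGCA, which reads as the core on the other strand and lies 49 to 43 bases before the start. The window of MTF1 and the 2 windows of SLC39A10 held none of these letters. Those of SLC39A10, at chr2:195656708-195656957 and chr2:195656976-195657225, lie inside the gene, so the bases before its outermost start were not searched. Among 35116 RefSeq promoter windows of this length, 24.8% held at least 1 match, 0.370% at least 4 and 0.0313% at least 7. A match is a description of the letters and was not measured as a binding site in these cells.

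The deposited values are CPM scaled by the trimmed mean of M values (TMM), and the sum of each library corresponded to about 9721649 to 12482542 reads, at which 1 read was worth 0.0706 to 0.0889 CPM. Among the markers examined, ESR1 was at 0 to 0.170 CPM, under 3 reads, and TFF1 was at 0. The estrogen-response genes PGR and GREB1 were measurable, at 4.33 to 5.95 CPM and 3.57 to 5.54 CPM. KRT18 was at 156 to 238 CPM, KRT8 at 76.4 to 138 CPM, VIM at 2856 to 4116 CPM and ERBB2 at 35.7 to 65.0 CPM. EPCAM was low, at 3.93 to 7.62 CPM, and the basal marker KRT5 was at 0 to 0.495 CPM. The means of KRT18, KRT8, VIM and ERBB2 were lower at high glucose (VIM 4091 against 2967 CPM), and that of EPCAM was higher. The blood marker PTPRC was at 0 to 0.178 CPM, the liver marker ALB at 0.0797 to 0.364 CPM and the endothelial marker PECAM1 at 0.911 to 2.84 CPM. In the high-glucose group, the distance of a gene in 1 library from the mean of the other 3 went with transcript length. The sign of replicate 1 was opposite to that of the other 3. For each gene these distances sum to 0 over a group, so the opposite signs are in part built into the measure. The metallothionein values, which the length dependence touches most, are also given without high-glucose replicate 1. Leaving it out is not a correction for length. For each metallothionein above 0, it moved the log2 difference the opposite way to removing the length dependence. That of MT2A was 0.31 with all libraries, 0.16 without replicate 1 and 0.42 with the dependence removed. In bulk RNA, fewer cells carrying a transcript and less of it per cell cannot be told apart.

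Among the 9 genes in the table, 3 had values in all 4 high-glucose libraries above all 4 low-glucose libraries (SLC30A1, MTF1 and SLC39A14), and 3 had values below them (MT1X, MT1F and SLC39A10). MT2A and MT1E overlapped between the groups, and MT1M was listed at 0 in all 8 libraries. Over the whole table, 44.5% of 21059 genes did not overlap (20.9% of all genes higher and 23.6% lower at high glucose), and 65.0% of 11297 genes with a mean of at least 5 CPM did not. The genes were picked on this contrast, so nothing is read from their count. The median difference in log2(CPM + 1) over all genes was close to 0, at -0.0092.

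SLC30A1 (ENSG00000170385.10, chromosome 1, 211571568 to 211579161 in GRCh38.p14) was at 26.7, 26.4, 28.4 and 26.7 CPM in the 4 low-glucose libraries and at 125, 121, 117 and 121 CPM in the 4 high-glucose libraries. Every high-glucose library therefore lay far above the low-glucose range, and the spread within each group was small beside the distance between them. The mean was 27.0 ± 0.891 CPM at low glucose and 121 ± 3.11 CPM at high glucose (SD, n = 4 each), which is 4.47-fold, or 2.12 on the log2(CPM + 1) scale with a standard error (SE) of 0.03. About 319 to 367 reads stood behind each low-glucose value and 1357 to 1764 behind each high-glucose value. Among the genes with a mean of at least 5 CPM, 12 had a larger positive difference than SLC30A1 on the log2(CPM + 1) scale. That scale understates changes of low genes, so the rank depends on it. Leaving out high-glucose replicate 1 gave 2.11 and removing the dependence on transcript length also gave 2.11. No stretch of 31 bases of its transcript occurred in another gene, unlike those of the metallothioneins.

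MTF1 (ENSG00000188786.10, chromosome 1, 37809574 to 37859592) was at 22.1, 18.4, 22.4 and 23.5 CPM at low glucose and at 31.6, 38.5, 41.5 and 48.7 CPM at high glucose. The groups did not overlap, although the high-glucose libraries were spread widely, with replicate 1 lowest and replicate 4 highest. The mean was 21.6 ± 2.21 CPM at low glucose and 40.1 ± 7.11 CPM at high glucose, 1.86-fold, with a difference of 0.85 (SE 0.15) on the log2 scale. It was 0.96 without high-glucose replicate 1 and 0.75 without replicate 4. MTF1 transcript level says nothing of the metal-bound, nuclear form of the protein, which was not measured.

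**Figure D1:**
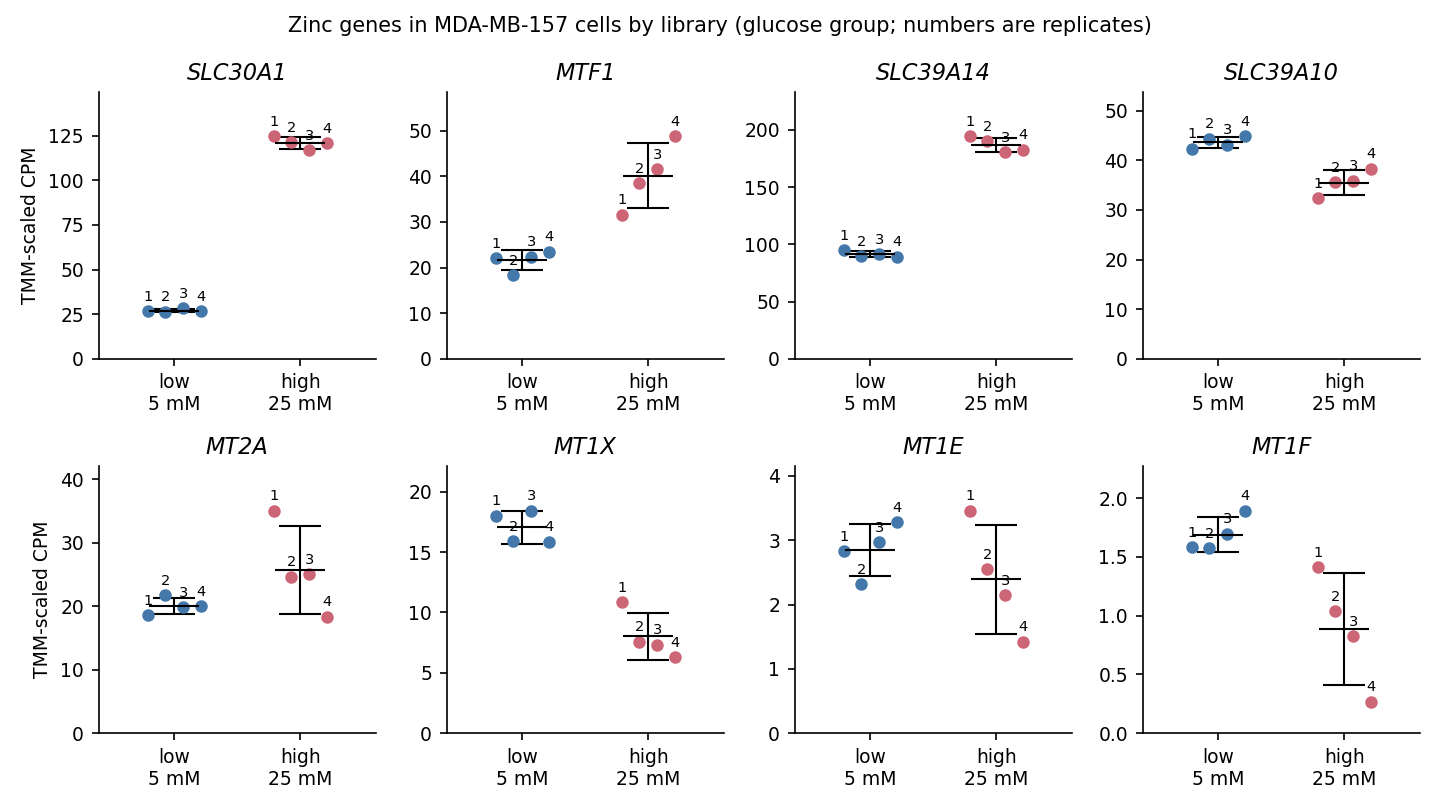
TMM-scaled CPM of 8 zinc genes (vertical axes, each starting at 0) in the 4 low-glucose (5 mM) and 4 high-glucose (25 mM) libraries of MDA-MB-157 cells. Points are libraries with their replicate number, long lines are group means and bars are ± 1 SD. SLC30A1, MTF1 and SLC39A14 are higher in every high-glucose library, MT1X, MT1F and SLC39A10 are lower in every one, and MT2A and MT1E overlap.

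The importers SLC39A14 and SLC39A10 lay on opposite sides. SLC39A14 (ENSG00000104635.14, chromosome 8), the importer ZIP14 that also carries iron and manganese, was at 95.0, 89.4, 91.2 and 89.3 CPM at low glucose and at 194, 189.9, 181 and 183 CPM at high glucose. All 4 high-glucose libraries lay well above the low-glucose range, and no library stood apart. The mean was 91.2 ± 2.66 CPM at low glucose and 187 ± 6.24 CPM at high glucose, 2.05-fold, a log2 difference of 1.03 (SE 0.03), which was 1.01 without high-glucose replicate 1.

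SLC39A10 (ENSG00000196950.14, chromosome 2, 195613029 to 195737700), the plasma membrane importer ZIP10, was at 42.3, 44.3, 43.1 and 44.8 CPM at low glucose and at 32.3, 35.6, 35.9 and 38.3 CPM at high glucose. The groups came closest at high-glucose replicate 4 and low-glucose replicate 1, and did not overlap. The mean was 43.6 ± 1.11 CPM at low glucose and 35.5 ± 2.45 CPM at high glucose, so that 81.4% of the low-glucose level was left, a log2 difference of -0.29 (SE 0.05). It was -0.25 without high-glucose replicate 1 and -0.31 with the dependence on length removed.

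The metallothioneins did not follow SLC30A1. Their genes lie in 1 cluster on chromosome 16, and 4 of them had values above 0. MT2A (ENSG00000125148.7, 56608584 to 56609497), the most abundant of them, was at 18.6, 21.7, 19.8 and 20.0 CPM at low glucose and at 35.0, 24.6, 25.0 and 18.3 CPM at high glucose. In 3 of the 4 high-glucose libraries it was above the low-glucose range, but high-glucose replicate 4 was below all low-glucose libraries, and the groups overlapped. The mean was 20.0 ± 1.28 CPM at low glucose and 25.7 ± 6.90 CPM at high glucose, 1.29-fold, with a log2 difference of 0.31 (SE 0.19). This difference was 0.16 without high-glucose replicate 1 and 0.46 without replicate 4, in which case the groups no longer overlapped.

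MT1X (ENSG00000187193.9, 56682470 to 56684196) was at 18.0, 15.9, 18.4 and 15.9 CPM at low glucose and at 10.9, 7.57, 7.34 and 6.31 CPM at high glucose. Every high-glucose library was below every low-glucose library. The mean was 17.1 ± 1.36 CPM at low glucose and 8.02 ± 1.98 CPM at high glucose, which is 47.0% of the low-glucose level and a log2 difference of -1.02 (SE 0.16). It was -1.16 without high-glucose replicate 1. Of the 31-base stretches of the MT1X transcript, 54.0% also occur in another annotated gene, 36.4% in an overlapping transcript on the same strand. Reads of MT1X can thus be shared with other genes, and its level is uncertain to that extent. The overlapping transcript was not found in the table, and how reads shared with it were treated is not given.

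MT1E (ENSG00000169715.14, 56625781 to 56627112) and MT1F (ENSG00000198417.7, 56657959 to 56659303) were low. MT1E was at 2.83, 2.32, 2.97 and 3.28 CPM at low glucose and at 3.46, 2.55, 2.14 and 1.42 CPM at high glucose, so that the high-glucose libraries reached both above and below the low-glucose range. Its log2 difference was -0.21 (SE 0.20), from 16 to 49 reads in a library. It was -0.35 without high-glucose replicate 1 and -0.06 without replicate 4. MT1F was at 1.58, 1.57, 1.70 and 1.89 CPM at low glucose and at 1.41, 1.04, 0.825 and 0.267 CPM at high glucose. All high-glucose values of MT1F were below the low-glucose ones, with replicate 1 close to them and replicate 4 down at 3 reads. Its log2 difference was -0.55 (SE 0.20) with 1 CPM added to each value, and -1.03 with 0.1 CPM added. It was -0.68 without high-glucose replicate 1 and -0.37 without replicate 4.

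MT1M (ENSG00000205364.4, 56632659 to 56633981) was listed at 0 in all 8 libraries, where 3 reads would have been 0.212 to 0.267 CPM. Of its 31-base stretches, 39.7% occur in another gene, as do 31.5% of those of MT2A, 22.6% of those of MT1E and 13.9% of those of MT1F. How the authors' counting treated reads that match several genes is not given in the sources used here.

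Summed over MT2A, MT1X, MT1E and MT1F, metallothionein transcripts came to 41.0, 41.5, 42.9 and 41.0 CPM at low glucose and to 50.8, 35.8, 35.3 and 26.3 CPM at high glucose. The low-glucose sums lay close together, while high-glucose replicate 1 was above all of them and the other 3 high-glucose libraries were below. The mean was 41.6 ± 0.892 CPM at low glucose and 37.04 ± 10.1 CPM at high glucose, a difference smaller than the high-glucose SD. Without high-glucose replicate 1 the mean was 32.5 ± 5.34 CPM (n = 3) and all 3 sums lay below the low-glucose range, so the overlap rests on that library. The difference in summed CPM was -4.56 with all libraries, -9.13 without replicate 1 and -0.99 without replicate 4.

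The composition of this pool separated the groups with all 8 libraries, whereas its sum separated them only when high-glucose replicate 1 was left out. Per kilobase of transcript, MT2A made up 47.1%, 54.0%, 47.9% and 50.8% of the pool in the low-glucose libraries and 71.5%, 71.4%, 73.1% and 71.6% in the high-glucose libraries. All 4 high-glucose libraries, including replicates 1 and 4 whose sums lay at opposite ends, fell within 2 points of each other. The mean share of MT2A was 49.95 ± 3.11% at low glucose and 71.9 ± 0.794% at high glucose, and leaving out each library in turn gave a difference of 20.96 to 23.3 percentage points. The share of MT1X was 42.2 ± 2.99% at low glucose and 22.4 ± 1.42% at high glucose. MT1F went from 3.98 ± 0.390% to 2.20 ± 0.848%, and MT1E was at 3.83 ± 0.568% and 3.53 ± 0.443%. A share is a ratio within a library and shows that MT2A and MT1X differed from each other in their change, not which of them changed.

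**Figure D2:**
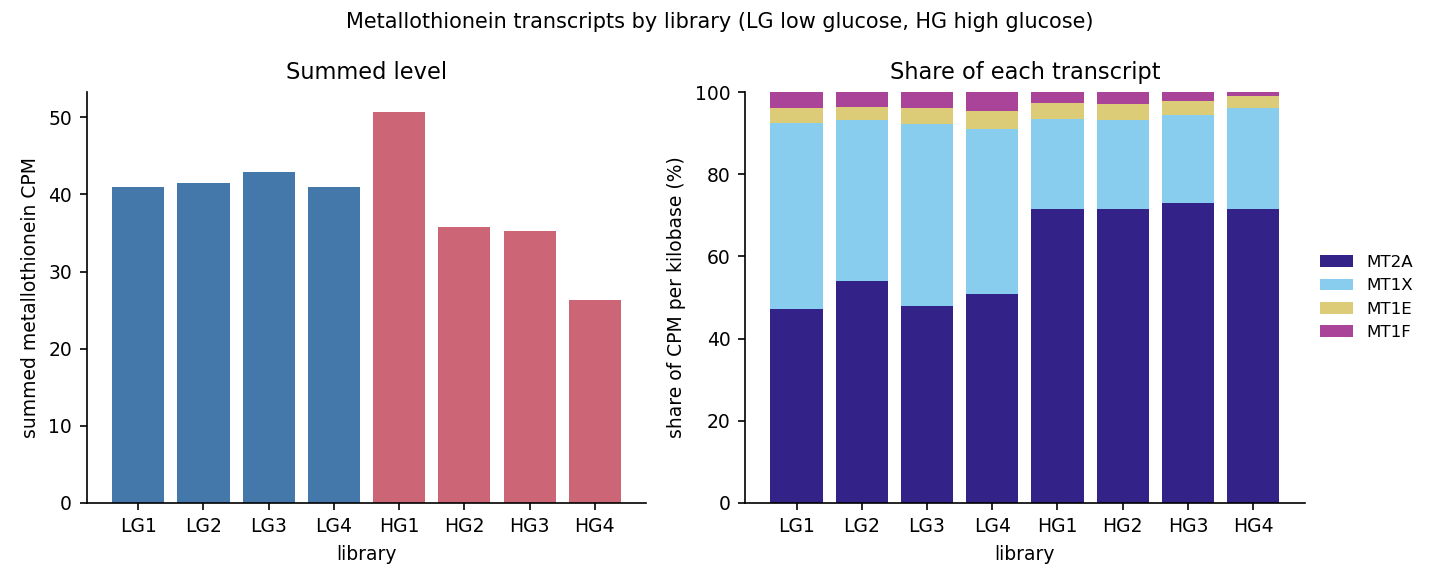
Left, summed CPM of MT2A, MT1X, MT1E and MT1F in each library (bars from 0, LG low glucose, HG high glucose). Right, the percent of the summed CPM per kilobase of transcript that each gene makes up. The sums of the high-glucose libraries run from 26.3 to 50.8 CPM around the low-glucose sums of 41.0 to 42.9 CPM, while the MT2A share is 71.4% to 73.1% in all 4 of them against 47.1% to 54.0%.

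Levels of different genes were set beside each other per kilobase of transcript. The full annotated length was used with no further correction, and reads of the metallothioneins can be shared with other genes. Small margins between genes are therefore uncertain. At low glucose the order was MT2A (49.9 ± 3.20 CPM per kilobase), MT1X (42.2 ± 3.35), SLC39A14 (19.6 ± 0.571), SLC39A10 (8.36 ± 0.213), SLC30A1 (4.59 ± 0.151), MT1F (3.97 ± 0.350), MT1E (3.82 ± 0.536) and MTF1 (2.72 ± 0.279). The neighbours MT1F and MT1E overlapped between libraries. At high glucose the order was MT2A (64.2 ± 17.2 CPM per kilobase), SLC39A14 (40.1 ± 1.34), SLC30A1 (20.5 ± 0.527), MT1X (19.9 ± 4.89), SLC39A10 (6.80 ± 0.470), MTF1 (5.05 ± 0.896), MT1E (3.21 ± 1.14) and MT1F (2.08 ± 1.13). Here SLC30A1 and MT1X overlapped, as did MTF1 with MT1E and MT1E with MT1F. The exporter stood below the storage transcript MT1X in all low-glucose libraries. At high glucose it was above MT1X in replicates 2, 3 and 4 (20.6 against 18.7, 19.8 against 18.2 and 20.5 against 15.6 CPM per kilobase) and below it in replicate 1 (21.1 against 26.9). Without replicate 1 the high-glucose levels per kilobase were 56.5 ± 9.37 for MT2A, 17.5 ± 1.66 for MT1X, 2.73 ± 0.766 for MT1E and 1.67 ± 0.936 for MT1F. The metallothionein sum was 21.8 ± 0.424 times the SLC30A1 level per kilobase at low glucose, with 21.4 to 22.4 in single libraries, and 4.34 ± 1.10 times at high glucose, with 3.12 to 5.78. Without high-glucose replicate 1 it was 3.86 ± 0.649 times.

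Within the high-glucose group the short metallothionein transcripts deviated together, and 2 of the 4 long transcripts deviated the opposite way. In replicate 1, MT2A, MT1X, MT1F and MT1E, with transcripts of 401, 404, 425 and 746 bases, were 0.39 to 0.47 above their group means in log2(CPM + 1), and in replicate 4 they were 0.28 to 0.54 below. MTF1, with 7937 bases, was 0.32 below its mean in replicate 1 and 0.29 above it in replicate 4, and SLC39A10 was 0.13 below and 0.11 above. The long transcripts of SLC30A1 and SLC39A14 stayed within 0.06 of their means in every high-glucose library and were slightly above them in replicate 1, as the short ones were. Low-glucose libraries deviated by at most 0.22 for any of these genes, with no common order.

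The same ordering by length was present in the rest of the table. Over 11223 genes with a mean of at least 5 CPM, Spearman's rho between transcript length and a gene's distance from the mean of the other 3 libraries of its group was -0.65 in high-glucose replicate 1 and 0.25, 0.34 and 0.47 in replicates 2, 3 and 4, against -0.13 to 0.06 in the low-glucose libraries. These points share a library and are given as a description. Measured in the same way, the median distance of 97 genes with transcripts under 500 bases was 0.24 in high-glucose replicate 1 and -0.01 to -0.10 in the other 3. For a given gene this distance is larger than that from its group mean, the measure used for the metallothioneins above. The 2 sets of values are therefore not on the same scale. Within a group these distances cancel out for each gene, so a shift in 1 library pushes those of the others the opposite way. After removal of the length dependence by a smooth curve in each library, the log2 differences were 0.42 for MT2A, -0.92 for MT1X, -0.09 for MT1E, -0.44 for MT1F and 0.85 for MTF1. In log2(CPM + 1) with the dependence removed, MT2A was at 5.14, 4.73, 4.79 and 4.36 in high-glucose replicates 1 to 4. MT1X was at 3.54, 3.15, 3.15 and 2.96. For each metallothionein with values above 0, replicate 1 thus stayed highest and replicate 4 lowest among the high-glucose libraries. What part this dependence has in the metallothionein values was not tested.

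**Figure D3:**
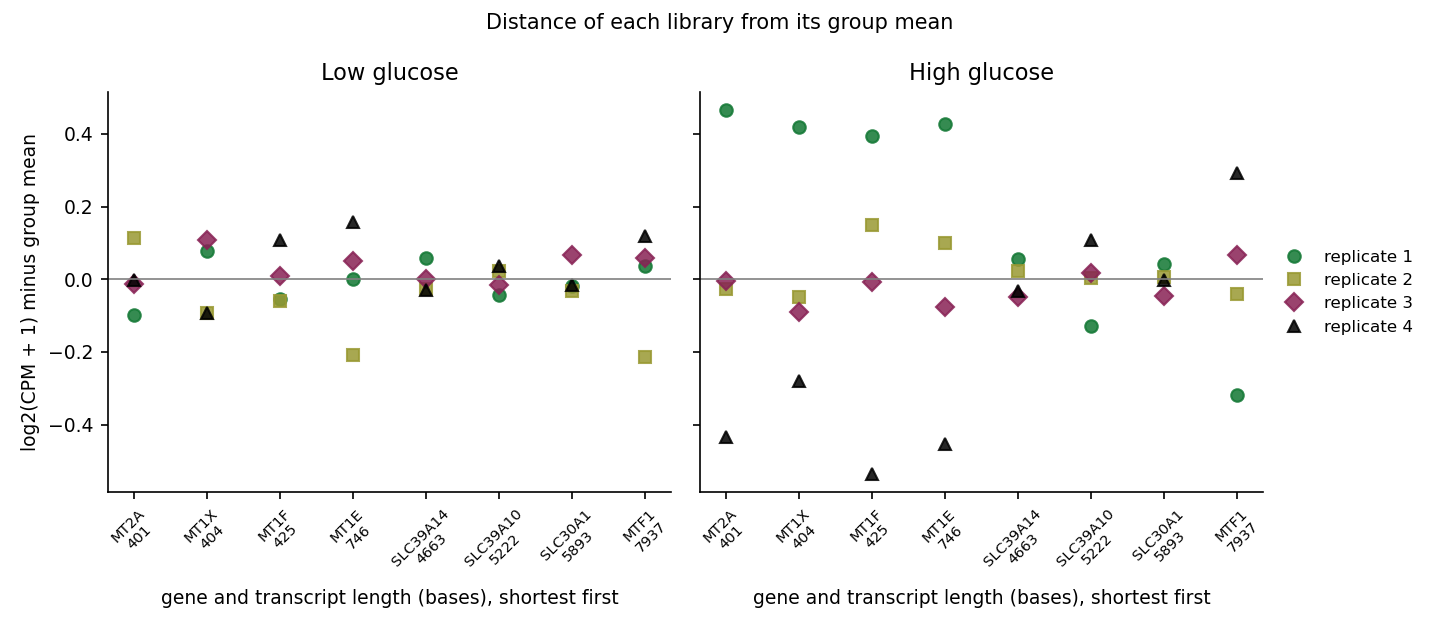
Deviation of each library from its group mean in log2(CPM + 1) (vertical axis) for 8 zinc genes ordered by transcript length from 401 to 7937 bases (horizontal axis, not to scale), low glucose left and high glucose right. Symbols mark replicates. At high glucose, replicate 1 is 0.39 to 0.47 above and replicate 4 is 0.28 to 0.54 below the mean for the 4 metallothioneins, and the order is turned for MTF1 and SLC39A10.

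Further genes were taken from 8 lists, which cover zinc, copper and iron handling, metal and proteotoxic stress, and the glucocorticoid response. They were tested with limma, with Benjamini-Hochberg adjustment across all 21059 genes. The lists were also chosen with earlier results of these data known, so their p-values and counts are not independent of that choice. Of all genes, 46.8% passed an adjusted p of 0.05, 22.0% of all genes higher and 24.8% lower at high glucose, and among genes with a mean of at least 5 CPM 66.9% passed. Of the 94 genes of the lists, 81 were in the table and 49 passed, 32 higher and 17 lower. The counts below are to be read against these shares.

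Of 10 other zinc exporters of the ZnT family, 9 were in the table and 3 passed, 2 higher and 1 lower, with a median log2 difference of -0.02. SLC30A3, which loads zinc into vesicles, rose from 8.92 ± 0.535 to 14.4 ± 1.74 CPM (log2 difference 0.63, limma adjusted p = 0.00100). SLC30A7, which loads the Golgi, rose to 49.9 ± 2.51 CPM at high glucose (0.18, limma adjusted p = 0.00907). SLC30A9, a mitochondrial zinc exporter, fell from 81.8 ± 2.39 to 64.3 ± 1.92 CPM (-0.34, limma adjusted p = 8.65e-05). SLC30A4, SLC30A5 and SLC30A6 did not pass, with log2 differences of -0.04, -0.03 and -0.02. SLC30A2 and SLC30A8 were under 3 reads in every library, and TMEM163 was listed at 0. Beside the difference of 2.12 of SLC30A1, the other exporters measured thus ran from -0.34 to 0.63.

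Of 12 other ZIP importers, 10 were in the table and 7 passed, 4 higher and 3 lower, with a median of 0.14. SLC39A11 (ZIP11) fell from 40.6 ± 1.36 to 16.8 ± 1.48 CPM (-1.23, limma adjusted p = 7.99e-06). SLC39A7, which releases zinc from the endoplasmic reticulum, rose from 236 ± 10.6 to 375 ± 21.1 CPM (0.66, limma adjusted p = 4.58e-05). SLC39A9 and SLC39A6, the latter a plasma membrane partner of SLC39A10, rose by 0.24 and 0.28 (limma adjusted p = 8.63e-05 and 1.50e-04). With SLC39A14 and SLC39A10 beside them, the importers thus held both higher and lower genes at either end.

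**Figure D4:**
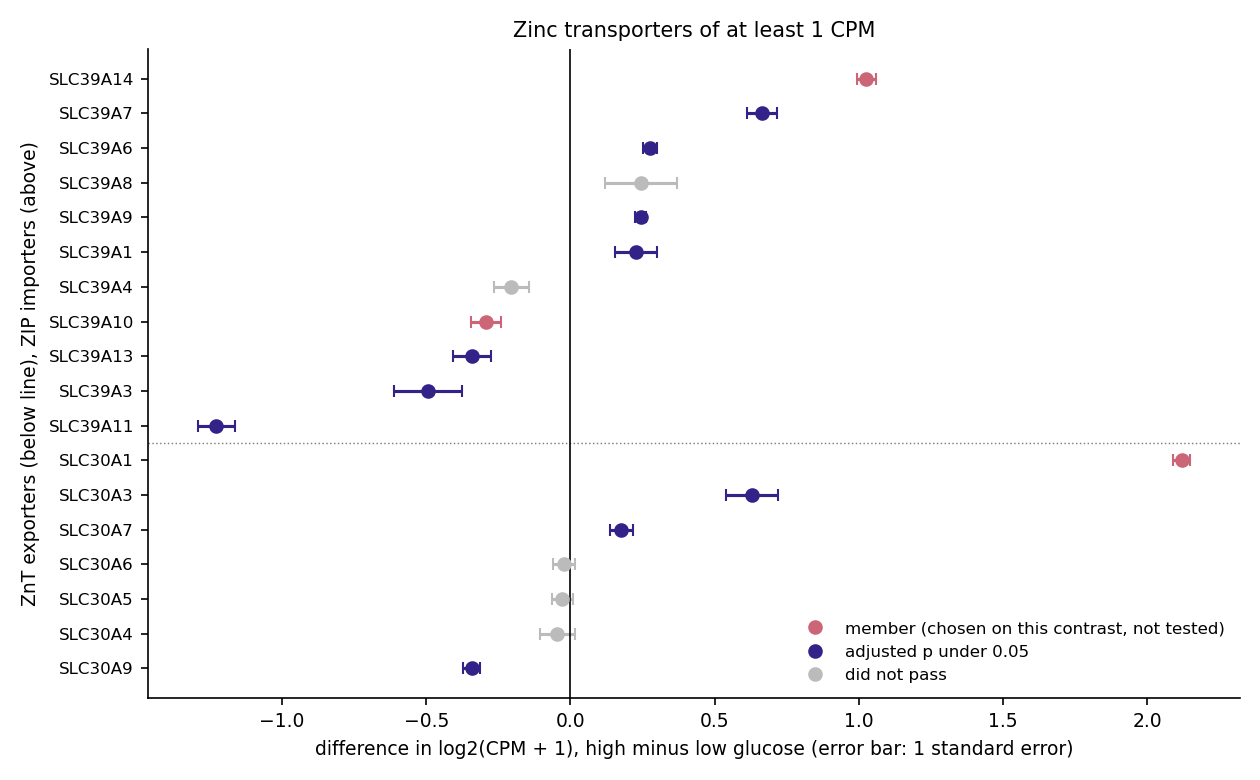
Difference in log2(CPM + 1), high minus low glucose (horizontal axis), for zinc transporters with a mean of at least 1 CPM, ZIP importers above and ZnT exporters below the dotted line. Points are differences and bars ± 1 SE, dark points passed a limma adjusted p of 0.05, grey points did not, and the genes picked on this contrast (SLC30A1, SLC39A14, SLC39A10) are red and not tested. SLC30A1 lies at 2.12, SLC39A14 at 1.03 and SLC39A11 at -1.23.

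Of 11 other metallothionein genes and pseudogenes, MT1A and MT1L were in the table and listed at 0 in all 8 libraries. A further list held 9 genes of the zinc response and of zinc chaperones, of which 7 passed, 5 higher and 2 lower, with a median of 0.39. The 5 higher ones were all copies of the zinc chaperone family ZNG1, named CBWD in the table, which delivers zinc to the protease METAP1. CBWD5 rose from 22.4 ± 0.647 to 36.7 ± 0.639 CPM (0.69, limma adjusted p = 3.09e-06) and CBWD1 from 48.8 ± 1.13 to 76.6 ± 4.43 CPM (0.64, limma adjusted p = 2.39e-05). CBWD3 and CBWD2 rose by 0.82 and 0.39 (limma adjusted p = 0.00266 and 0.00520). These copies are nearly identical, reads can pass from one to another, and they are not separate evidence. The 2 lower genes, named after their values were seen, were ZNF658 (-0.72), a zinc finger gene, and the zinc receptor gene GPR39 (-0.50), whose call was lost without low-glucose replicate 1 or 2 or high-glucose replicate 2 (limma adjusted p 0.0565 to 0.0599).

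Metallothioneins also bind copper, and SLC39A14 also carries iron. Of 13 copper genes, 7 passed, 4 higher and 3 lower, with a median of -0.02. SLC31A2, a copper transporter of endosomes and lysosomes, rose from 4.78 ± 1.01 to 12.8 ± 0.828 CPM (1.27, limma adjusted p = 2.41e-04), and CCS, the copper chaperone of SOD1, fell from 8.43 ± 0.618 to 4.22 ± 0.365 CPM (-0.85, limma adjusted p = 1.20e-04). The importer SLC31A1 rose by 0.28 and the cytochrome oxidase assembly gene SCO1 by 0.42 (limma adjusted p = 0.00179 for each). The copper exporters ATP7A and ATP7B had log2 differences of -0.01 and -0.08 and did not pass.

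Of 15 iron genes, 10 passed, 6 higher and 4 lower, with a median of 0.08. TFRC, the transferrin receptor, rose from 230.1 ± 2.78 to 391 ± 15.0 CPM (0.76, limma adjusted p = 3.26e-06), and the poly(C)-binding iron chaperone gene PCBP2 rose by 0.27 (limma adjusted p = 2.60e-04). The iron regulatory proteins ACO1 and IREB2 fell by 0.50 and 0.34 (limma adjusted p = 1.38e-05 and 4.90e-04).

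Of 15 genes of metal and proteotoxic stress, 11 passed, 9 higher and 2 lower, with a median of 0.42. HSPH1, a nucleotide exchange factor of HSP70, rose from 81.1 ± 3.58 to 199.9 ± 9.47 CPM (1.29, limma adjusted p = 2.00e-06) and its cochaperone DNAJB1 from 169 ± 3.02 to 268 ± 10.1 CPM (0.66, limma adjusted p = 5.08e-06). The HSP70 genes HSPA1A and HSPA1B rose by 1.90 and 1.71 (limma adjusted p = 1.34e-05 and 1.04e-05), but are nearly identical and can share reads. HMOX1, heme oxygenase, which metals also induce, rose 2.34-fold to 51.3 ± 7.32 CPM (1.18, limma adjusted p = 5.86e-05). The 2 lower genes were SLC7A11, the cystine importer, at 82.4 ± 2.37 and 40.8 ± 3.87 CPM, and NQO1, a quinone reductase, with a log2 difference of -0.47. HMOX1, SLC7A11 and NQO1 were named after their values were seen.

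MT2A and MT1X are also known to respond to glucocorticoids. Of 8 glucocorticoid response genes in the table, 4 passed, 2 higher and 2 lower, with a median of 0.17. The feedback inhibitor ERRFI1 rose from 11.9 ± 0.182 to 28.9 ± 0.836 CPM (1.21, limma adjusted p = 8.10e-07) and the kinase SGK1 from 32.2 ± 1.91 to 75.9 ± 5.42 CPM (1.21, limma adjusted p = 8.67e-06). TSC22D3 (GILZ) fell from 33.2 ± 1.80 to 15.7 ± 3.19 CPM (-1.05, limma adjusted p = 5.18e-04). CDKN1C, a cyclin-dependent kinase inhibitor, fell by 0.19 (limma adjusted p = 0.0206), a call lost under 7 of the alternatives, at adjusted p between 0.0526 and 0.290.

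Genes next to these loci were taken from RefSeq positions within 250 kb. Around SLC30A1, 2 of 5 genes in the table passed, with a median of -0.03. They were NEK2, a mitotic kinase, which rose by 0.84 (limma adjusted p = 1.39e-05), and the noncoding RNA LINC00467, which fell by 0.72 (limma adjusted p = 5.40e-04). Around the metallothionein cluster, which spans 75613 bases, all 6 genes passed, 5 higher and 1 lower, with a median of 0.29. The lower one was the cilium gene BBS2 (-0.74, limma adjusted p = 1.40e-05), and the RNA processing gene NUDT21 rose by 0.29 (limma adjusted p = 9.27e-05). BBS2 and MT1X were lower and the other 5 neighbours higher, so no direction was shared across the region.

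The genes most like SLC30A1 and MT2A were found by the root mean square difference over the 8 libraries of log2(CPM + 1) minus the low-glucose mean, among 11296 other genes with a mean of at least 5 CPM. The closest to SLC30A1 was TFPI2, a protease inhibitor of the matrix, with a difference of 0.0453, at 18.5 ± 0.638 and 80.6 ± 1.27 CPM. ADAMTS1, a secreted metalloprotease, followed at 0.0540, with 53.0 ± 1.43 and 229.5 ± 10.1 CPM, and the Notch ligand gene DNER at 0.0787, with 1.76 ± 0.299 and 10.9 ± 0.590 CPM. At the low level of DNER the added 1 CPM shrinks its log2 difference, so its likeness to SLC30A1 depends on that scale. The closest to MT2A were POLR2L, a polymerase subunit, at 0.0788 and MRPS12, a mitochondrial ribosomal protein, at 0.0818, with a high-glucose SD of 12.0 and 14.3 CPM against 2.39 and 2.64 CPM at low glucose. The measure takes in the spread between libraries of a group as well, so likeness to MT2A does not show a shared response to glucose. None of these 5 genes is on a list used here.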

How the data were processed

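RNA of MDA-MB-157 cells was sequenced in 4 libraries at 5 mM and 4 at 25 mM glucose, with groups and replicate numbers taken from the sample titles. The authors deposited 1 table of CPM, which by their methods was scaled with TMM factors from edgeR after a filter on low genes. The filter they describe, 0.5 CPM in at least 2 samples, is not seen in these 8 libraries, where 4216 genes fall short of it. The submitters' processing notes name hg38, while the methods describe alignment to hg19 for tumors first, so the build and annotation of the table are uncertain, and the counting tool and its use of strand are not given in the sources used here. Positions and promoters come from RefSeq (GRCh38.p14), and transcript lengths and shared 31-base stretches from a GENCODE annotation on GRCh37, with lengths for 20730 genes and RefSeq positions for 17167.

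Of 21077 lines, 18 Y copies identical to their X copies were left out, which left 21059 genes, 856 of them at 0 in every library. Only 73.2% to 74.6% of the values were whole multiples of 1 read (tolerance 0.02 read), so whole reads were not recovered and no count test was run. Read numbers are sums divided by the value of 1 read, and their precision covers counting error alone, because PCR copies were not marked by molecular identifiers.

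Analyses used log2(CPM + 1), a scale that understates changes of low genes. All genes were compared with limma 3.58.1 in R 4.3.3 (lmFit, eBayes with trend, 2-sided, no covariate) and Benjamini-Hochberg adjustment over 21059 genes at 0.05. In simulated data, 200 genes with a mean of at least 5 CPM were shifted by 1 in log2(CPM + 1). Of these, 195 were recovered, and 14 of 20859 unchanged genes were called. The simulated noise was independent and held no length dependence, and far more genes passed in the real data, so these rates need not carry over. The SE of a difference is that of 2 group means.

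The members and the lists were chosen with earlier results of these data known. Named genes were the members, in each list at most the 4 past the threshold with the smallest adjusted p and those at 0, the 3 genes most like SLC30A1 and MT2A, and at most 3 neighbours within 250 kb of each locus. Among these, 2 genes are not reported here. Alternatives were a pseudocount of 0.1, minimum means of 1 and 5 CPM, 2 other scalings, removal of the length dependence (spline with 5 degrees of freedom), a replicate block and leaving out each library, the last also for the metallothionein sum and its ratio to SLC30A1, added after seeing the data.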

Additional observations from a re-analysis of the deposited data

Results flagged for a closer look

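Of 94 groups of 4 libraries examined for a value far from the other 3, 6 had one, where chance gives about 4.70. Low-glucose replicate 3 was high for SLC30A1, at 28.4 CPM with the next library at 26.7. For the MT2A share of the metallothionein pool, high-glucose replicate 3 was highest at 73.1% with the next at 71.6%. Among the genes of the lists, high-glucose replicate 3 was low for the zinc chaperone copy CBWD3 at 9.42 CPM, high-glucose replicate 4 was low for the copper transporter SLC31A2 at 11.6 CPM, and low-glucose replicate 1 was low for SCO1 at 38.6 CPM. Low-glucose replicate 4 had the most reads of its group, about 12104244. For these 4 genes and the MT2A share, the distance was smaller than the difference between the groups, which did not overlap.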

How the results depend on the processing

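Counts of genes that passed, the count of members without overlap and the MT2A share kept their direction and stayed within the limits set for them under each alternative run. Genes that passed over the whole table numbered 8120 with a minimum of 5 CPM, 8921 with a replicate block and 8899 to 10156 with 1 library left out, against 9849. Deviations of libraries with the same replicate number correlated at -0.04 to 0.07, so no pairing by number was seen. This cannot exclude pairing, because the length dependence at high glucose weighs on these deviations. Among the 36 genes named as passing, the block changed the call of CDKN1C alone. In the list of zinc response and chaperones, 6 genes passed under the block in place of 7. Members without overlap numbered 5 to 7, with 5 at a minimum of 5 CPM, where MT1F was left out before counting. Among the 36 genes and the members with values above 0, no direction turned under the alternatives run, those for the 9 genes named outside the lists' rule being added after seeing the data. The MT1F difference was -1.03 with 0.1 CPM added in place of -0.55, and that of SLC30A1 was 2.16 with median-of-ratios scaling in place of 2.12. CDKN1C was no longer called under a minimum of 1 or 5 CPM, length removal, the block, or without low-glucose replicate 1 or 4 or high-glucose replicate 3, and GPR39 without low-glucose replicate 1 or 2 or high-glucose replicate 2 (limma adjusted p 0.0565 to 0.0599). MT1E and MT1F, at 3 to 49 reads a library, are limited by depth.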
